A study of Mus musculus with 4 samples.

Results

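Ifng, Il22 and 6 genes around them on mouse chromosome 10 (Iltifb, Mdm1, Rap1b, Nup107, Dyrk2 and Cand1) were followed across 3 kinds of innate lymphoid cell. The 8 genes were taken by name from the gene count tables, and all 8 were among the 30731 genes listed in every table. They span 1489 kb of the GRCm38 build, in the order Nup107, Rap1b, Mdm1, Il22, Iltifb, Ifng, Dyrk2 and Cand1. Total RNA was sequenced from cell types whose genome folding was mapped by Hi-C in the same study. The NK library (1) came from wild-type C57BL/6 spleen and the ILC2 library (1) from wild-type C57BL/6 bone marrow, each pooled from mice of 8 to 12 weeks. The ILC2 were grown with the cytokines IL-25, IL-33, IL-7 and IL-2 (10 ng/ml), and no culture is given for the NK cells. MNK-3 (2 libraries) is an ILC3-like line that began as NIH-Swiss thymocytes of fetal day 15 and grew with IL-15 and IL-7 (10 ng/ml). Cell type, tissue, culture, strain and, for MNK-3, the gene set used for counting therefore differ together and cannot be told apart. The protocol speaks of technical replicates, so the MNK-3 pair may show technical spread only.

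Ifng encodes interferon gamma, the cytokine by which NK cells and other type 1 lymphocytes activate macrophages and antigen presentation, and Il22 encodes IL-22, which type 3 lymphocytes send to epithelial cells to raise barrier defence. The IL-12 and IL-18 receptors and the T-box factors T-bet and Eomes are known to drive Ifng, whereas IL-23, IL-1 and AHR are known to drive Il22. Iltifb is a duplicate of Il22 on the opposite strand, present in C57BL/6 and long regarded as a poorly expressed or inactive copy. Mdm1 encodes a centriole protein, Rap1b a small GTPase that activates integrins, Nup107 a subunit of the nuclear pore, Dyrk2 a protein kinase, and Cand1 an exchange factor for cullin ubiquitin ligases.

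Because Il22 and Iltifb are so alike, the bases that let a read be assigned come first. The coding parts of Il22 and Iltifb (1 GENCODE M21 transcript of each) are both 537 bases long and differ at 9 positions, which is 98.3% identity. Of the 500 coding stretches of 38 bases, the length of a read, 263 (52.6%) were the same in both genes. The stretch with the most differences lies in exon 2, at chr10:118205570-118205607 (+) in Il22 and chr10:118294373-118294410 (-) in Iltifb, and capitals mark its 3 differing bases, C188T, T213C and C217T counted from the first coding base of Il22.
Il22: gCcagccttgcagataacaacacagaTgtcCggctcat
Iltifb: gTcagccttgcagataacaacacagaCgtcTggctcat
Taken without its mate, a read can be placed in 1 gene only if it covers a base of this kind. Reads came in pairs, and a mate over such a base can place both. The shares of stretches here are for single reads, so they may overstate how many pairs fit both genes. Over all annotated transcripts, 512 of the 1073 stretches of Il22 (47.7%) and 512 of the 1109 of Iltifb (46.2%) occurred in the other gene, and no stretch of Rap1b, Nup107 or Cand1 occurred in any other gene.

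The promoters of the 3 cytokine genes set them apart from their neighbours in base composition. In RefSeq windows of 250 bases before to 50 after the start (GRCm38.p6), GC content was 46.0% in Ifng, 45.3% in Il22 and 36.3% in Iltifb, against 68.0 to 79.0% in the other 5. CG dinucleotides numbered 7, 4 and 5 in these 3 windows and 27 to 48 in the others. By GC the cytokine windows lay at percentiles 25.1, 23.1 and 4.98 of 32851 promoters, and the other 5 at 87.4 to 98.6. By the number of CG dinucleotides the cytokine windows lay nearer the middle, at percentiles 47.9, 31.4 and 38.0, and the other 5 at 84.5 to 98.8. The parts before the first annotated start are printed from RefSeq to show where the duplicates part ways, with a TATA box (TATAAA) in capitals where there is one, for Ifng at chr10:118440796-118441045 (+), Il22 at chr10:118204714-118204941 (+) and Iltifb at chr10:118295039-118295288 (-).
Ifng: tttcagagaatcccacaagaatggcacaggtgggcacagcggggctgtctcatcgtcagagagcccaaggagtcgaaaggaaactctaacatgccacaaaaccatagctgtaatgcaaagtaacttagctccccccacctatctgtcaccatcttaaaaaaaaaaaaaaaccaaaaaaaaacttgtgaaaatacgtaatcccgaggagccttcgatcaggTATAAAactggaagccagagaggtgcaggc
Il22: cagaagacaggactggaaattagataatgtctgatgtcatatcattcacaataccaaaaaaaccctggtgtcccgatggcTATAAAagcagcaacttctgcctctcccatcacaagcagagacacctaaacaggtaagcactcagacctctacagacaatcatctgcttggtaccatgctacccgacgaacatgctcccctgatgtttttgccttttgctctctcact
Iltifb: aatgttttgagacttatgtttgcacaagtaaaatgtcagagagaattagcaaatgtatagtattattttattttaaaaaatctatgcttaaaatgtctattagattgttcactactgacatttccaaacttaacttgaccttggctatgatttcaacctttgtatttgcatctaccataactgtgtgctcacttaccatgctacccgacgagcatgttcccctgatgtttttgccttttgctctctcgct
Aligned without gaps, the windows of Il22 and Iltifb were identical at 101 of 112 bases over their 3′ part. That part begins at position -84 of Il22 and -62 of Iltifb counted from each RefSeq start. It was set to begin at the first base from which the rest was at least 90% identical. Its share of identical bases therefore follows from this rule, and its first bases, as printed, do not match. The longest run identical in both was 30 bases, from -55 of Il22 and -33 of Iltifb. Upstream of the 3′ part only 42 of 166 bases matched (25.3%). TATAAA stood at position -30 of Ifng and, within the part that the duplicates do not share, at position -170 of Il22, and was not in the Iltifb window. On either strand, 13.6% of all promoter windows held these letters. Also searched on both strands were the motifs of STAT (TTCNNNGAA), T-box (GGTGTGA), nuclear receptor (AGGTCA), AP-1 (TGANTCA), RUNX (TGTGGT), NFAT (GGAAA), AHR (GCGTG) and CREB (TGACGT) factors. Of these, GGAAA occurred once in each cytokine window (61.3% of all windows hold it), TTCNNNGAA, which reads the same on both strands, once in Ifng (8.30%), and AGGTCA once in Ifng, after the start, and once in Iltifb (16.3%). Among the other 5, Nup107 also held TTCNNNGAA and GGAAA, Rap1b held GGAAA and Cand1 held AGGTCA. These motifs therefore do not set the cytokine windows apart.

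Ifng was high in the NK library alone. NK had 246 reads and ILC2 had 2, while replicates 1 and 2 of MNK-3 had 61 and 0. Scaled to CPM, the reads of a gene relative to all reads in the shared genes with adjustment by trimmed means of M values, these were 51.2, 0.264, 1.72 and 0 CPM. The NK level was 29.8 times that of MNK-3 replicate 1 (95% counting interval 22.5 to 40.2) and 194 times that of ILC2 (53.2 to 1613). Against MNK-3 replicate 2 it was at least 221-fold higher, taking 3 reads as the floor of that library. Intervals here and below cover counting error only, and in bulk RNA fewer cells of a type and less RNA per cell cannot be told apart.

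Below NK, the order of the Ifng levels was MNK-3 replicate 1, then ILC2 and MNK-3 replicate 2. The exact counting interval of ILC2 (0.0319 to 0.952 CPM) overlapped that of MNK-3 replicate 2 (up to 0.285), whereas replicate 1 (1.31 to 2.20) lay above both. So Ifng was detected in 1 of the MNK-3 pair and had no reads in the other, where the floor of 3 reads used for folds corresponds to 0.232 CPM.

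The reads of Ifng in MNK-3 replicate 1 were at the level of genes that the other library of the line lacked. Replicate 1 had 75.8% of its reads outside genes, against 23.1 to 47.1% in the other 3, and at least 1 read in 95.6% of the shared genes, against 69.6 to 76.0%. Within the region, 19 long intergenic RNA genes had at most 1 read in MNK-3 replicate 2. All 19 had reads in replicate 1, from 14 to 352, with a median of 1.64 CPM per kb of exon (range 0.807 to 4.32). They were taken by gene class from 29 region genes, other than those followed here, with at most 1 read in replicate 2. Of these 29, 5 also had no reads in replicate 1, and the median there was 1.22 CPM per kb (range 0 to 4.32). Ifng in replicate 1 stood at 1.32 CPM per kb, within both ranges. Of 19 measured genes of other tissues, such as Alb of liver and Myh6 of heart, all had reads in replicate 1 (median 1.19 CPM per kb), and 6 had none in replicate 2 (median 0.0359). The part of this difference between the libraries in the Ifng reads was not tested.

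**Figure D1:**
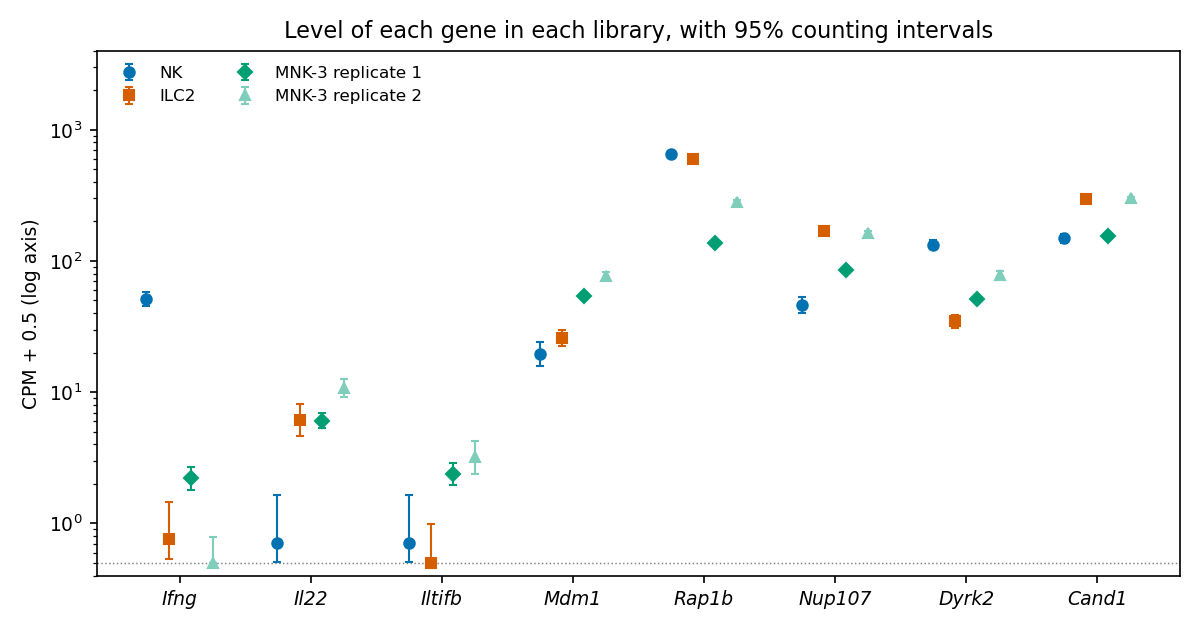
Level of each of the 8 genes in each library, as CPM plus 0.5 on a log axis; points are single libraries, bars are exact 95% Poisson intervals for counting error, and the dotted line marks a count of 0. Ifng is high in NK alone, Il22 is lowest in NK, and Mdm1 is higher in both MNK-3 libraries than in NK and ILC2.

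Ifng may also have been counted over different bases in MNK-3 and in the others, depending on how reads over overlapping genes were treated. Gm49751, an unconfirmed transcript on the same strand at chr10:118441419-118444140, covers 336 of the 1295 exon bases of Ifng (25.9%), and the other 2386 of its bases lie outside Ifng exons. It is listed only in the NK and ILC2 tables, where it had 346 and 0 reads. In NK, Ifng and Gm49751 together had 592 reads (123 CPM), of which Gm49751 held 58.4%. Per kb, Gm49751 stood at 30.2 CPM over its bases outside Ifng exons, and Ifng at 53.4 CPM over its exon bases outside Gm49751. Both values assume that reads over the shared bases were counted for neither gene. With these reads added to NK and ILC2, an alternative chosen after seeing the data, the log2 ratio of MNK-3 over NK went from -5.25 to -6.51. This sum takes in bases outside Ifng exons in NK and ILC2 but not in MNK-3. It therefore does not put the groups on the same bases.

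Il22 had nearly the reverse order, at a far lower level. NK had 1 read and ILC2 had 43, while replicates 1 and 2 of MNK-3 had 198 and 133, or 0.208, 5.67, 5.57 and 10.3 CPM. NK was lowest, and the other 3 libraries overlapped only in part. ILC2 was 1.02 times MNK-3 replicate 1 (counting interval 0.714 to 1.42), while MNK-3 replicate 2 was 1.82 times ILC2 (1.28 to 2.62) and 1.85 times replicate 1 (1.47 to 2.31). The levels of replicate 1 depended on scaling: with library totals it was 1.67 times ILC2, and replicate 2 was 1.13 times replicate 1, while with median-of-ratios factors these ratios were 0.661 and 2.61. Replicate 2 stayed at 1.67 to 1.89 times ILC2 over the 4 scalings. Per kb of exon, Il22 reached 9.27 CPM at most, in MNK-3 replicate 2, and Ifng 39.5 CPM in NK. Unlike Ifng, Il22 stood above the 19 intergenic RNA genes in replicate 1, with 5.02 CPM per kb.

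Iltifb was detected beyond a single read in MNK-3 alone. NK had 1 read and ILC2 had 0, while replicates 1 and 2 of MNK-3 had 67 and 35, or 0.208, 0, 1.88 and 2.71 CPM. The intervals of the MNK-3 pair overlapped (1.46 to 2.39 and 1.89 to 3.77), as did those of NK and ILC2. Both MNK-3 libraries were higher than ILC2, at least 4.77-fold and 6.85-fold with 3 reads as the ILC2 floor. In replicate 1 its 1.64 CPM per kb was at the median of the 19 intergenic RNA genes. It was above the median of the 29 region genes from which they were taken (1.22). All of these have at most 1 read in replicate 2, whereas Iltifb had 35 reads there. The part of that background in the replicate 1 reads of Iltifb, and so in its share below, was not tested.

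The share of Iltifb in the reads of the pair does not depend on how libraries are scaled. It was 25.3% of 265 reads in MNK-3 replicate 1 (exact binomial interval 20.2 to 31.0) and 20.8% of 168 reads in replicate 2 (14.96 to 27.8). In ILC2 it was 0 of 43, with an upper bound of 8.22%, below both MNK-3 intervals, and the 2 reads of NK give no share. Divided by the stretches that only 1 of the genes has (561 in Il22, 597 in Iltifb), the MNK-3 shares were 24.1 and 19.8%. These stretches take no account of read pairs. MNK-3 is of NIH-Swiss and ILC2 of C57BL/6 origin, the source of the reference, so a difference between cell types and 1 between strains' alleles of the pair cannot be told apart. Each table gives 0 reads aligned to more than 1 place, and how reads common to both genes were treated is not given in the sources used here, so both levels may be too low.

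**Figure D2:**
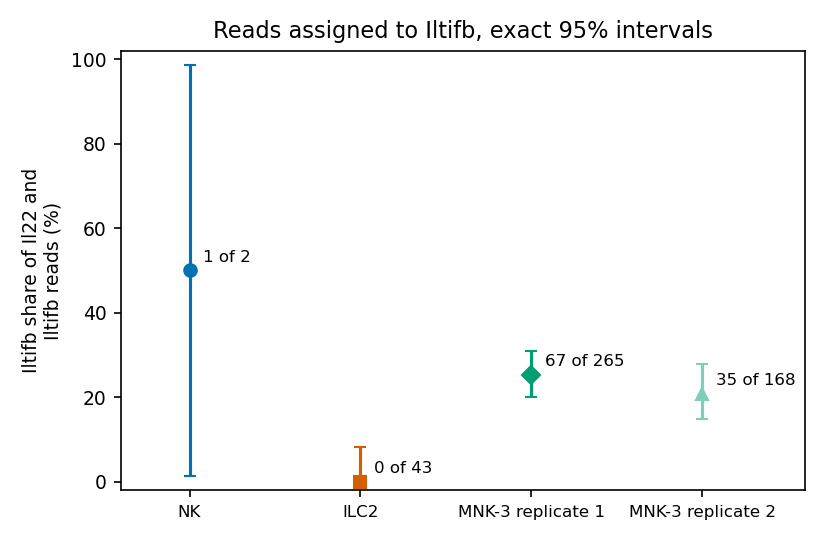
Share of Iltifb, in percent, among reads assigned to Il22 or Iltifb in each library, with exact 95% binomial intervals and the read counts. The MNK-3 libraries lie at 25.3 and 20.8%, and ILC2, with 0 of 43, has an interval that ends below both of theirs.

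The 5 neighbours were expressed in every library. Mdm1 had 19.1 CPM in NK and 25.4 in ILC2, with MNK-3 at 53.3 and 76.7. Both MNK-3 libraries were above the others, by 2.10-fold (1.81 to 2.44) for the smallest gap, between replicate 1 and ILC2, a ratio that ran from 1.41 to 3.70 over the 4 scalings. Rap1b, the most abundant of the 8 per kb, ran the other way, with 651 CPM in NK and 597 in ILC2, with MNK-3 at 138 and 283. Its NK and ILC2 levels differed by 1.09-fold (1.04 to 1.14), and by 1.09 to 1.41-fold over the 4 scalings. The MNK-3 pair differed by 2.06-fold in Rap1b, and by 1.07 to 2.91-fold over the 4 scalings.

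Nup107 and Cand1 were low in NK and high in ILC2 and in MNK-3 replicate 2. Nup107 had 45.8 CPM in NK and 170 in ILC2, with MNK-3 at 85.5 and 162. Cand1 had 148, 299, 155 and 299 CPM in the same order. For both genes MNK-3 replicate 2 could not be told from ILC2 by its counting interval (ratios 1.05 and 1.00), and over the scalings replicate 2 of MNK-3 was 0.923 to 1.05 times ILC2 for Cand1. Replicate 1 was 1.05 times NK for Cand1 (0.968 to 1.13), but 1.40 times with library totals and 0.705 times with median-of-ratios factors. Dyrk2 was highest in NK with 132 CPM, then MNK-3 with 50.6 and 78.1, and lowest in ILC2 with 34.1. NK exceeded ILC2 by 3.88-fold (3.35 to 4.50), the widest gap in Dyrk2. Replicate 1 was 1.48 times ILC2 for Dyrk2, and 0.997 to 2.62 times over the scalings.

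The direction between the MNK-3 libraries depended on their scaling factors for every gene but Ifng, Rap1b and Cand1. For Cand1 and Rap1b the gap was small with factors from genes at 100 CPM or more (log2 ratios of -0.0075 and -0.10). Replicate 1 was below replicate 2 for 7 of the 8 genes with the trimmed means and with median-of-ratios factors, for 4 with library totals (Il22, Rap1b, Nup107 and Cand1) and for 2 with factors from genes at 100 CPM or more (Rap1b and Cand1). In the main scaling the log2 ratio of replicate 1 over replicate 2 ran from -1.04 (Rap1b) to -0.43 (Iltifb), and was 2.15 for Ifng, whose count of 0 in replicate 2 allows only a positive ratio. Over all genes at 100 CPM or more in replicate 2 the median was -0.97.

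Across groups, no gene of the 8 passed the test in MNK-3 against NK or against ILC2. NK against ILC2, with 1 library each, was described by size alone. With limma voom and Benjamini-Hochberg adjustment over 25283 genes, 132 genes were called between MNK-3 and NK (0.522%, 2 higher and 130 lower; 883 at an unadjusted p under 0.05) and 86 between MNK-3 and ILC2 (0.34%, 2 higher and 84 lower; 905). Only the MNK-3 pair gives the fit a residual degree of freedom (1), and it assumes that the lone NK and ILC2 libraries vary like it. Ifng in MNK-3 against NK came nearest, with a log2 fold of -7.07 (SE 2.68), an unadjusted p of 0.00842 and a limma voom adjusted p of 0.528. Over the alternatives its lowest limma adjusted p was 0.183. Rap1b depended on scaling: with library totals in place of the trimmed means it was called lower in MNK-3 than in NK (log2 fold -1.68, limma voom adjusted p = 1.56e-07) and than in ILC2 (-1.21, adjusted p = 1.69e-04). In the main scaling its folds were -1.62 (SE 1.15) and -1.50 (SE 1.20).

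By size, without a test, Ifng was the only gene of the 8 whose groups differed 4-fold while the higher one reached 10 CPM. Its log2 ratio of CPM plus 0.5 was -5.25 for MNK-3 over NK and 6.08 for NK over ILC2. Among genes at 10 CPM, 5.22% were 4-fold lower and 14.4% 4-fold higher in MNK-3 than NK, and 5.35% were higher and 12.7% lower in NK than ILC2. None of the 8 reached 4-fold between MNK-3 and ILC2, where 8.76% of genes were higher and 6.14% lower. Beside these shares, 1 gene of 8 is a single gene and no result about the group. Without MNK-3 replicate 1 the Ifng ratio was -6.69 over NK and -0.61 over ILC2, where with both libraries it was 0.83, so its direction against ILC2 rests on that library. Il22 had log2 ratios of 3.57 for MNK-3 over NK and -3.12 for NK over ILC2, but stayed under 10 CPM in these groups. It passed the size rule only without replicate 1 (log2 ratio 3.93), and Rap1b only without replicate 2 (-2.24 over NK, -2.11 over ILC2). Dyrk2 passed between NK and ILC2 with library totals (2.28) or with factors from genes at 100 CPM or more (2.30), against 1.94 otherwise. These comparisons share their libraries, so their ratios are not independent of each other.

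**Figure D3:**
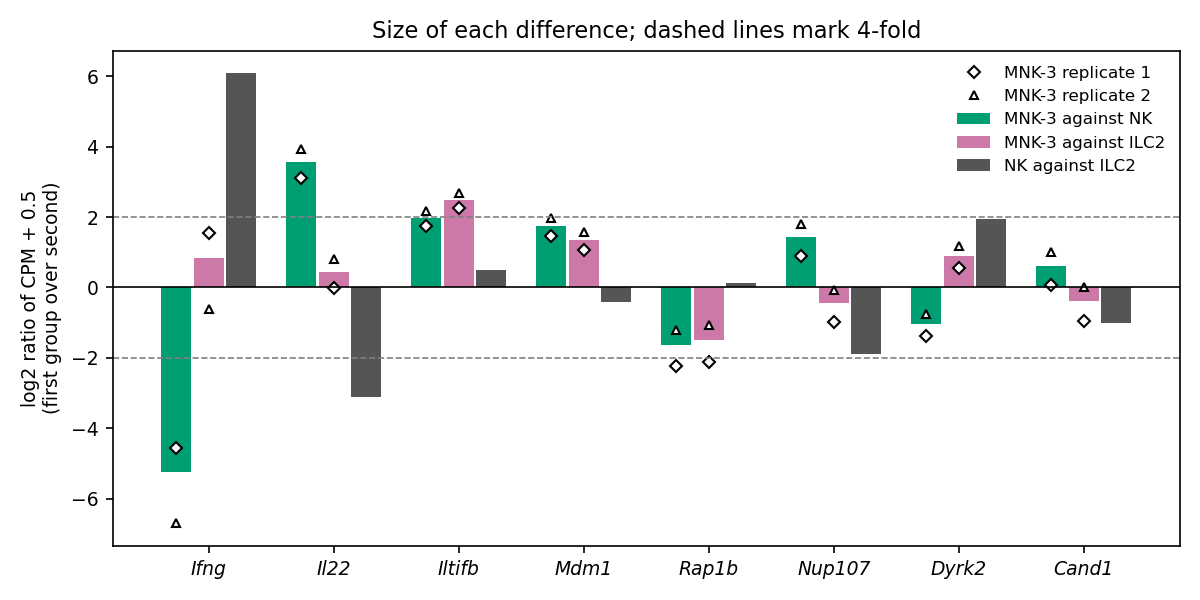
Log2 ratio of CPM plus 0.5 for each gene in the 3 comparisons; bars use the mean of both MNK-3 libraries, white symbols show each MNK-3 library on its own, and dashed lines mark 4-fold. Ifng stands at -5.25 and 6.08 against and for NK, while its MNK-3 libraries fall on opposite sides of ILC2.

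Around the 8 genes most genes of the region were low in every library. From 500 kb before the first to 500 kb after the last, 71 genes are annotated, 48 of them listed in all tables. Of the 40 that are not among the 8, 35 stayed under 10 CPM in every library. The 5 above it were Cpsf6, an RNA 3′-end processing factor (137 CPM in NK and 227 in ILC2, MNK-3 at 120 and 244), Mdm2, the ubiquitin ligase of p53 (91.8, 167, 70.2 and 115), Slc35e3 (8.32, 5.53, 18.3 and 16.9), Cpm (3.33, 9.49, 17.4 and 0.387) and Grip1 (3.33, 1.58, 11.7 and 0.928). Cpsf6 and Mdm2, like Nup107 and Cand1, were higher in ILC2 than in NK. Cpm and Grip1 exceeded 10 CPM in MNK-3 replicate 1 only.

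Ifngas1, a long noncoding RNA gene whose start lies 115 kb from that of Ifng, is named here after its values were seen. NK had 19 reads and ILC2 had 0, while replicates 1 and 2 of MNK-3 had 56 and 0, or 3.95, 0, 1.57 and 0 CPM. Like Ifng it was highest in NK, with reads in MNK-3 replicate 1 and none in replicate 2. It is itself among the 19 intergenic RNA genes above, all of which had reads in replicate 1 and at most 1 in replicate 2, so that part of the likeness is shared by all of them. NK was 2.51 times replicate 1 (1.41 to 4.29).

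**Figure D4:**
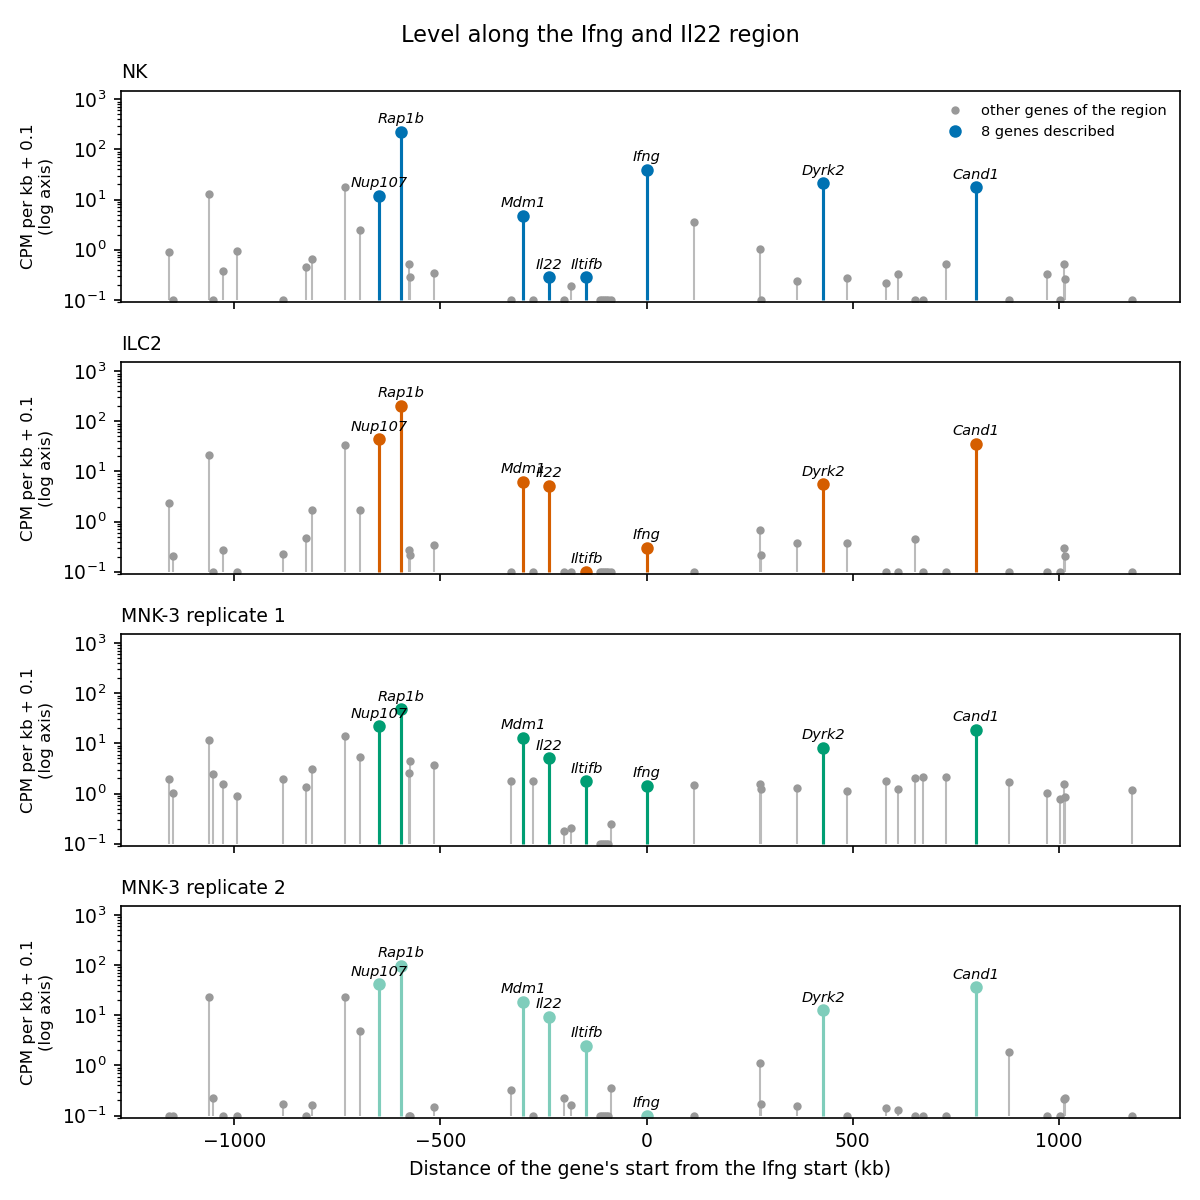
Level per kb of exon (plus 0.1, log axis) of the 48 region genes against the distance in kb of each start from the Ifng start, 1 panel per library; coloured points are the 8 genes and grey points the other 40. In MNK-3 replicate 1 most grey points lie near 1 CPM per kb, where Ifng also lies, and in replicate 2 most lie at the bottom.

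The genes that act upstream of Ifng were compared over lists chosen with earlier results of these data known. Of 8 receptor genes for cytokines that induce Ifng, 2 were called lower in MNK-3 than NK, where 0.522% of all genes were called and 130 of the 132 were lower, with a median log2 ratio of -1.47 beside 0.49 for all genes. Those called were Il18r1 (573 CPM in NK and 31.2 in ILC2, MNK-3 at 4.19 and 2.94; limma voom adjusted p = 1.22e-05) and Il12rb2 (241, 0.527, 19.0 and 10.7; limma voom adjusted p = 0.00436). Il2rb, shared by the IL-2 and IL-15 receptors (1763, 299, 248 and 547), Il18rap (942, 565, 56.2 and 136) and Il2rg (257, 245, 91.4 and 205) were not called. The 2 receptor calls depended on scaling, since factors from genes at 100 CPM or more called Il18rap and Il2rb instead.

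Of 11 regulators of Ifng, 3 were called lower in MNK-3 than NK, again beside 0.522% of all genes, nearly all of them lower (median log2 ratio -1.79). These were Eomes (874 CPM in NK and 11.7 in ILC2, MNK-3 at 19.8 and 35.0; limma voom adjusted p = 0.00208), Tbx21, which encodes T-bet (449, 2.90, 21.03 and 21.4; 0.00364), and Zeb2 (590, 599, 22.2 and 32.5; 0.00586). Zeb2 was also called lower than in ILC2 (0.0228). Library totals kept these calls, and median-of-ratios factors and factors from abundant genes lost all of them. Runx3 (407, 467, 171 and 394 CPM) and Stat4, the transducer of IL-12 (343, 156, 53.5 and 103), were not called in the main scaling. Tbx21 and Eomes shared with Ifng the high level in NK, and unlike Ifng had reads in both MNK-3 libraries.

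Among the receptors upstream of Il22, Il23r and Il1r1 were near 0 in ILC2, where Il22 was detected. Il23r, which makes the IL-23 receptor specific, had 0 reads in both NK and ILC2, while the MNK-3 libraries had 151 and 359 CPM. Il1r1, the IL-1 receptor, is named outside the rule, after its values were seen: NK and ILC2 had 1.04 and 1.84 CPM, and the MNK-3 libraries 134 and 316. Il7r had 48.3 CPM in NK and 426 in ILC2, with MNK-3 at 194 and 408. Il12rb1, the subunit common to the IL-12 and IL-23 receptors, had 37.0, 261, 83.9 and 148. None of the 6 receptor genes was called in either comparison (median log2 ratio 2.13 against NK, 0.41 against ILC2, beside 0.49 and 0.56 for all genes). Il23r had limma log2 folds of 11.2 against NK and 11.9 against ILC2, each with an SE of 4.75. The lack of a call therefore does not mean like levels.

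Of 10 regulators of Il22, 1 was called higher in MNK-3 than NK, where 0.522% of all genes were called and 2 of the 132 were higher. It was Rora, a retinoid-related receptor (35.0 CPM in NK and 609 in ILC2, MNK-3 at 931 and 2161, limma voom adjusted p = 0.00436). Against ILC2, 1 was called lower, where 0.34% of all genes were called and 84 of the 86 were lower. It was Batf, an AP-1 family factor (29.3, 197, 8.83 and 10.1 CPM, limma voom adjusted p = 0.00417). Library totals kept both calls, and the other 2 scalings did not. Gata3 (122, 1244, 70.2 and 109), Tcf7 (1054, 152, 460 and 1079) and Stat3 (311, 583, 164 and 276) were not called in the main scaling. Against ILC2, library totals also called these 3 and Rora, and factors from abundant genes called Gata3 and Rora. The list's median log2 ratio was 0.08 against NK and -0.04 against ILC2, beside 0.49 and 0.56 for all genes. The sign of the list's median changed with scaling.

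**Figure D5:**
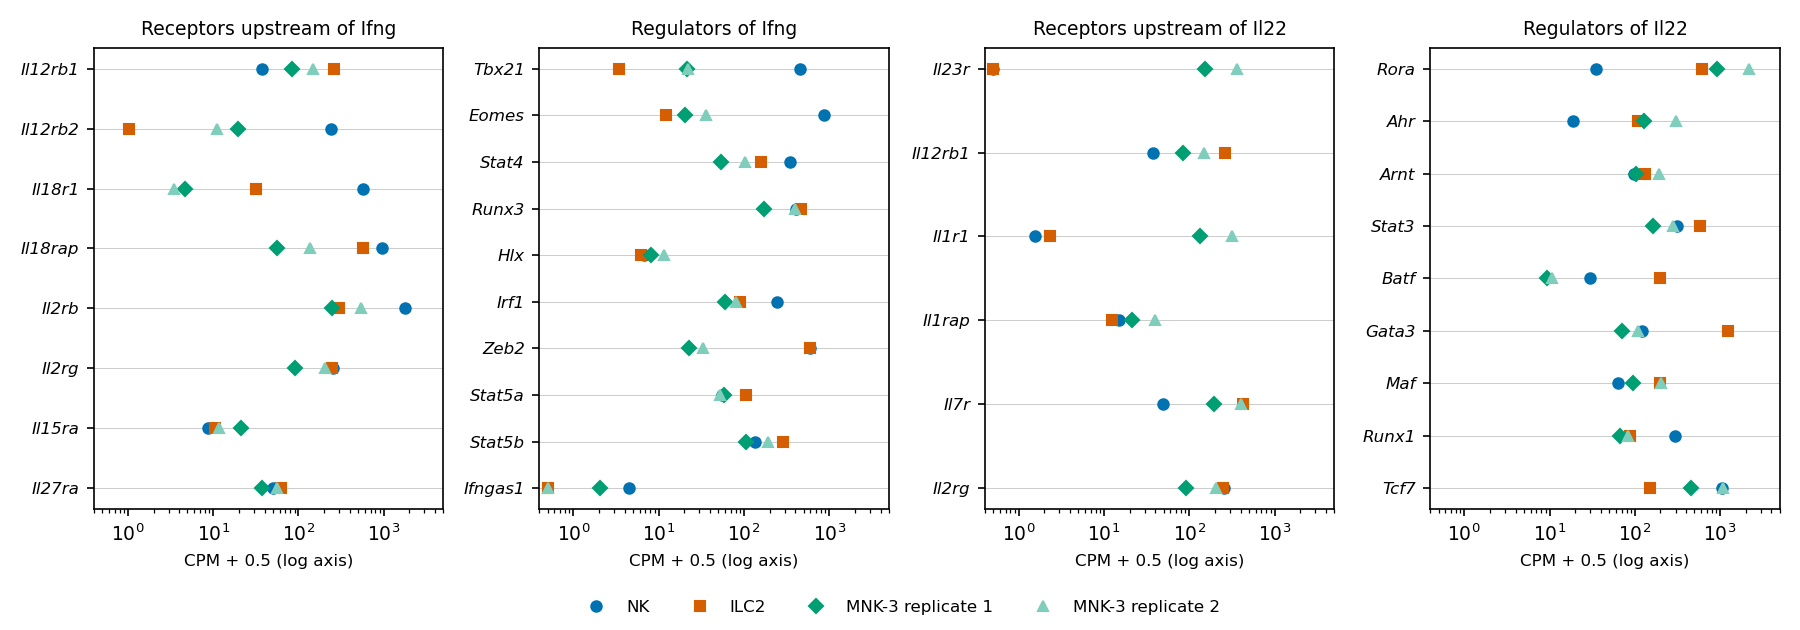
CPM plus 0.5 on a log axis for most of the receptor and regulator genes upstream of Ifng and Il22, 1 symbol per library. Tbx21, Eomes and Il18r1 lie far to the right in NK, and Il23r and Il1r1 in the MNK-3 libraries alone.

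Of 22 genes that respond to interferon gamma, none was called in either comparison, though library totals called 5 lower than in NK (among them Irf1 and Irf8), with medians of -0.72 against NK and -0.32 against ILC2, the second of which turned positive with library totals (0.09) and with factors from abundant genes (0.05). Psmb8, an immunoproteasome subunit, had 220 CPM in NK and 367 in ILC2, with MNK-3 at 155 and 323, and Tap1, a peptide transporter, 184, 202, 77.2 and 108. Irf8 had 519 CPM in NK and 19.0 to 71.4 elsewhere, and Irf1 had 246 and 59.7 to 90.5. Of 10 receptor and signalling genes, none was called: Ifngr1, the ligand-binding chain for interferon gamma, had 902, 122, 187 and 405 CPM, Jak1 2947, 1001, 305 and 654, and Jak2 173, 971, 74.995 and 151.

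Among the 8 cytokines of the IL-10 family Il22 was the highest by mean CPM. Il10 had 0.416 CPM in NK and 3.43 in ILC2, with MNK-3 at 11.8 and 0, and Il19 had 0, 0.132, 4.39 and 0. In MNK-3 replicate 2, Il22 and Iltifb were thus above 0 where Il10 and Il19 were not. Of 11 other cytokine genes of these cells, 3 were called, all lower in MNK-3 than ILC2. In that comparison 0.34% of all genes were called, and 84 of the 86 were lower. Those called were Il13 (2038 CPM in ILC2), Il5 (1635) and Csf2 (122), with limma voom adjusted p of 0.00708, 0.0121 and 0.00121. Factors from abundant genes lost all 3 calls, and library totals lost Il5. Ccl3 had 169 CPM in NK and 46.6 in ILC2, with MNK-3 at 0.872 and 0. Neither Ifng in NK nor Il22 in MNK-3 reached the CPM of Il13 in ILC2.

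Genes whose profile over the 4 libraries was nearest were sought by the root mean square difference of centred log2 CPM plus 0.5, among 12198 genes. For Ifng they were Cmklr1 (difference 0.149), Sidt1 (0.153) and Scimp (0.242), and Cmklr1 had 106, 0.922, 4.16 and 0.309 CPM. Among those for Il22 were Sgo2a (0.0487) and Fkbp9 (0.0490), and Sgo2a had 4.58, 45.6, 41.7 and 73.3 CPM. A profile over 4 libraries is matched by many genes, so these are descriptions.

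The summed cell type markers were highest under their own labels. NK markers summed to 8039 CPM in NK and 45.7 to 85.2 elsewhere, ILC2 markers to 7432 CPM in ILC2 and 138 to 225 elsewhere, and ILC3 markers to 2705 and 6330 CPM in MNK-3, 1481 in ILC2 and 179 in NK. Single markers differed from their sums: Klrg1, listed for ILC2, was highest in NK (86.6 CPM, against 25.4 in ILC2), Il17rb, also listed for ILC2, in MNK-3 replicate 1 (18.6 against 4.87), and Il7r, listed for ILC3, in ILC2. Beside Ifng in NK, the 9 T cell markers summed to 113 CPM, against 15.4 in ILC2, 126 and 49.6 in MNK-3. Of the sum in NK, Cd28 held 79.1 CPM, Cd3g 18.1, Cd3d 6.24 and Cd3e 4.58. The 7 B cell markers summed to 2.48 to 50.7 CPM and the 8 myeloid markers to 2.01 to 26.1 outside NK and 233 in NK, where Itgam, also made by NK cells, held 225 and Cd14 1.66. Their part in the levels of Ifng and Il22 was not tested.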

How the data were processed

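RNA-seq was analysed for 1 NK, 1 ILC2 and 2 MNK-3 mouse libraries, read in pairs of 38 bp. Per the submitters' processing notes, STAR 2.7.8a and HTSeq were used on mm10/GRCm38; strand setting and gene set are not given in the sources used here. The deposited values, of another unit than the usual ones in name, are HTSeq read counts of each gene, in whole numbers, without normalization by the authors. Those of NK and ILC2 list 53465 genes, and 31053 are listed for MNK-3. The 30731 in common, 30615 of them with a symbol from the reference, held 4637812 (NK), 9298162 (ILC2), 25617762 and 15177345 (MNK-3) reads and gave the CPM. Entries naming no gene held 49.3, 25.9, 76.5 and 26.6% of reads and were left out.

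Counts were scaled by trimmed means of M values (own code; factors 1.04, 0.816, 1.39 and 0.852) and tested with limma voom (limma 3.58.1, R 4.3.3), two-sided, with calls at p under 0.05 after Benjamini-Hochberg adjustment, after a filter at a minimum count of 10 and total of 15 that kept 25283 genes. The prior degrees of freedom came out as infinite, so SEs rest on the spread pooled over genes. The code was tested on simulated data. Sizes are log2 ratios of CPM plus 0.5. Count intervals are exact Poisson, share intervals Clopper-Pearson and ratio intervals exact binomial, all at 95%. CPM per kb uses merged GENCODE M21 exons.

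The members, lists and tests were chosen with earlier results of these data known. Named are all 8 genes, region genes at 10 CPM or more, up to 4 genes of highest mean CPM per list plus those called, and the nearest profiles; some items are not reported here. Alternatives were other scalings, filters, added CPM, libraries and limma-trend. Sequences are from RefSeq (GRCm38.p6; promoters of all 8 genes matched) and GENCODE M21.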

Additional observations from a re-analysis of the deposited data

Results flagged for a closer look

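In the region, 4 genes are listed in the NK and ILC2 tables alone, outside the genes compared (the Gm49751 reads enter 1 alternative), and had more reads than the 3 that a count of 0 allows. Gm49751, which overlaps Ifng on the same strand, had 346 reads in NK and 0 in ILC2. 4932442E05Rik, which overlaps 328 exon bases of Dyrk2 on the opposite strand, had 24 reads in NK and 2 in ILC2, and NK was also the library with the most Dyrk2 (132 CPM). Gm26976, a processed pseudogene, had 7 reads in ILC2 and 1 in NK. Gm47024 had 4 reads in ILC2 and 2 in NK. With 1 library each, these counts have no replicate check.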

How the results depend on the processing

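Genes called between MNK-3 and NK numbered 132 (2 higher, 130 lower), and 590 with library totals (73 higher, 517 lower), 63 with factors from genes at 100 CPM or more (0 and 63) and 810 with limma-trend (581 and 229). Between MNK-3 and ILC2 they numbered 86 (2 and 84), while median-of-ratios factors gave 50 (0 and 50); they were 828 with library totals (228 and 600), 177 with factors from abundant genes (12 and 165), 130 without the filter (16 and 114) and 411 with limma-trend (218 and 193). Of the 8 genes, 1 reached 4-fold between MNK-3 and NK and 2 with either MNK-3 library left out; between MNK-3 and ILC2 it was 0, and 0 to 1 with a library left out; between NK and ILC2 it was 1, and 2 with library totals or factors from abundant genes. Over 96 limma folds of the 8 genes under alternatives, 92 kept their direction and side of the threshold. Those of Ifng and Il22 against ILC2 turned, to -0.35 with limma-trend and to -0.029 with median-of-ratios factors, both far from a call (main values 0.21 and 0.23), and Rap1b was called with library totals in both comparisons. Of 179 log2 ratios, 161 stayed within the spread of the MNK-3 pair or the counting interval. Scaling moved the median of all genes between 0.27 and 0.66 for MNK-3 over NK and between 0.36 and 0.88 over ILC2. Leaving out an MNK-3 library leaves no residual degree of freedom, so only sizes were recomputed. No paired analysis was possible because NK and ILC2 have 1 library each, so the groups share fewer than 2 replicate numbers. Il22 in NK and Iltifb in NK and ILC2 had at most 1 read, so depth limits any difference there.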
